A study of Mus musculus with 12 samples.

Results

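The genes described here encode voltage-gated and related ion channels. They were taken by symbol, as probe sets whose single gene symbol in the platform annotation belongs to the potassium (Kcn), sodium (Scn), calcium (Cacn), HCN, chloride (Clcn) or transient receptor potential (Trpc, Trpm and Trpv) channel families. The rule used no measured value and found 76 of the 8251 genes named on the array, read by 97 of the 12422 probe sets tested. The pattern also takes Trpc4ap, a protein that associates with a TRP channel and is no channel itself, and it was kept.

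Total RNA of liver, cortex and cerebellum from 1 adult NMR-1 mouse was hybridised to Affymetrix MG_U74Av2 arrays, on which each transcript is read by sets of short oligonucleotides. In the 3X groups 1 ng of RNA went through 3 linear amplifications with the RiboAmp HS kit, made for very small samples, and each tissue had 3 such technical replicates. In the 1X groups 5 µg went through the manufacturer's standard protocol with 1 linear amplification, and each tissue had 1 array. All groups share the animal, so p-values measure the spread between arrays of the same RNA and say nothing about other mice. Input, kit and number of amplifications differ together between 3X and 1X and cannot be told apart. Brain means the average of cortex and cerebellum. In such bulk RNA, fewer cells of a type and less RNA per cell cannot be told apart.

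Ion channels are membrane proteins that let selected ions pass. Voltage-gated sodium channels start the action potential, voltage-gated potassium channels end it, and voltage-gated calcium channels turn it into calcium entry, for instance at synapses. Inward rectifier and tandem-pore potassium channels hold the resting potential, HCN channels carry the pacemaker current, and several CLC proteins exchange chloride for protons in endosomes and lysosomes. Neurons express many of these genes, while hepatocytes do not fire action potentials.

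The sequences that follow lie upstream of the genes on which the tissue comparisons turn, namely the 3 genes with a probe set called at least 2-fold lower in liver and the gene called between the brain regions. Each is the 250 bases before the most upstream start listed for the gene in RefSeq (assembly GRCm38.p6), on the gene's minus strand. Capitals mark a GC box (GGGCGG, or CCGCCC on the other strand), the site read by Sp1-type factors. The windows are chr8:60983312-60983561 for Clcn3, chr4:152477550-152477799 for Kcnab2, chr2:66440838-66441087 for Scn1a and chrX:7319359-7319608 for Clcn5.
Clcn3: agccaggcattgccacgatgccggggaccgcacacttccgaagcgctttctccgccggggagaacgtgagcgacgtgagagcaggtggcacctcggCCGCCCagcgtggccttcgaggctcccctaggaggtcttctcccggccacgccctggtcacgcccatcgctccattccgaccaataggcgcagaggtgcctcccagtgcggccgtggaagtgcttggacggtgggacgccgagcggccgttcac
Kcnab2: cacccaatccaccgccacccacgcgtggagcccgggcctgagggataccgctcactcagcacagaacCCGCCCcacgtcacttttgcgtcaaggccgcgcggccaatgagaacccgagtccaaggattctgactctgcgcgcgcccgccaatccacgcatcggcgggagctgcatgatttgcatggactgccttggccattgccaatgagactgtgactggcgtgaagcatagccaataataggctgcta
Scn1a: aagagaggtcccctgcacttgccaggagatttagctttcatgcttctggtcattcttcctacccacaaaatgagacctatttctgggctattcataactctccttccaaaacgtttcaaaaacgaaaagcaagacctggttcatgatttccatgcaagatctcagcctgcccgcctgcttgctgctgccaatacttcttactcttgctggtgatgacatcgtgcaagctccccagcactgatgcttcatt
Clcn5: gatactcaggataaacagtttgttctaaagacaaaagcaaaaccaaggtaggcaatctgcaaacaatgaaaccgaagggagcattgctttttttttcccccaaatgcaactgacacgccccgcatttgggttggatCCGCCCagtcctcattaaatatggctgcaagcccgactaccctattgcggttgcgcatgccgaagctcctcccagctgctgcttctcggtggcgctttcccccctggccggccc
The Clcn3 window has 68.4% G and C, the Kcnab2 window 61.2%, the Clcn5 window 52.4% and the Scn1a window 46.8%. Clcn3, Kcnab2 and Clcn5 each hold 1 GC box in the window shown and Scn1a holds none. The windows of Clcn3, Kcnab2 and Clcn5 at starts further downstream, not shown, hold none. RefSeq windows were found for 61 of the 76 genes, 81 windows in all, and 34 of them hold a GC box, against 32.7% of all 32851 windows. TATAAA, the core of a TATA box, is in 4 of the 81 windows and in 12.4% of all windows. The RE1 element, the binding site of the silencer REST that keeps many neuronal genes low outside the nervous system, was searched by its left part TCAGCACC and its right part GGACAGC on both strands. The left part is in 0 of the 81 windows and 1.32% of all, and the right part is in 4 of the 81 and 5.28% of all. Each motif was counted on its own, whether or not it overlapped another.

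The deposited values are log2 signals, so each level below is a log2 signal and each difference a log2 difference, in which 1 is a 2-fold change. Array medians over all probe sets lay between 3.45 and 3.48. A group mean below the median of its own arrays is called dim here, since RMA, the authors' summary method, gives no detection call. Of the 97 channel probe sets, 30 were dim in all 6 groups. Across the 97, each 3X array correlated with the 1X array of its tissue at r from 0.951 to 0.986, a description over probe sets of the same RNA. Over all probe sets the same correlations were lower, from 0.893 to 0.928. The tissue labels were checked on marker genes. In liver 6 of 7 hepatocyte markers were called higher and 5 of 7 pan-neuronal markers lower than in brain. In cortex 4 of 7 cortical neuron markers were called higher and 7 of 8 cerebellar neuron markers lower than in cerebellum. The cerebellum arrays also carried kidney transcripts, described beside Clcn5.

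Liver was set against brain in the 9 3X arrays with limma, with Benjamini-Hochberg adjustment over all 12422 probe sets and calls at an adjusted p under 0.05. In liver 19 of the 97 channel probe sets, from 15 genes, were called lower and 1 was called higher. The background was 12.3% lower and 8.17% higher calls among all probe sets tested. Those called lower came from 10 of the 11 subfamilies, with 6 in the chloride channels and 3 in the voltage-gated potassium alpha subunits, and the call in the TRP group was Trpc4ap. The largest differences were those of Clcn3, Kcnab2 and Scn1a, and only those 3 probe sets were also at least 2-fold lower (3.14% of all probe sets), with 0 members at least 2-fold higher (2.32%). The 3X liver mean was dim in all 3, so the size of these differences is no measured ratio of RNA. Without liver replicate 3 the count higher in liver was 5 (10.1% of all probe sets). The median difference of the 97 was -0.02, against 0.01 over all probe sets. In 18 of the 97 the 3 liver arrays lay below all 6 brain arrays (11.3% of all probe sets) and in 4 they lay above (9.1%). The pan-neuronal markers, which moved alongside, had summed log2 levels of 28.0 to 29.8 on the 3X liver arrays, against 36.6 to 39.7 on the 3X cortex and 37.3 to 38.8 on the 3X cerebellum arrays. The lowest value of any of them on any array was 0.09 (Gap43). Their part in the channel differences was not tested.

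**Figure D1:**
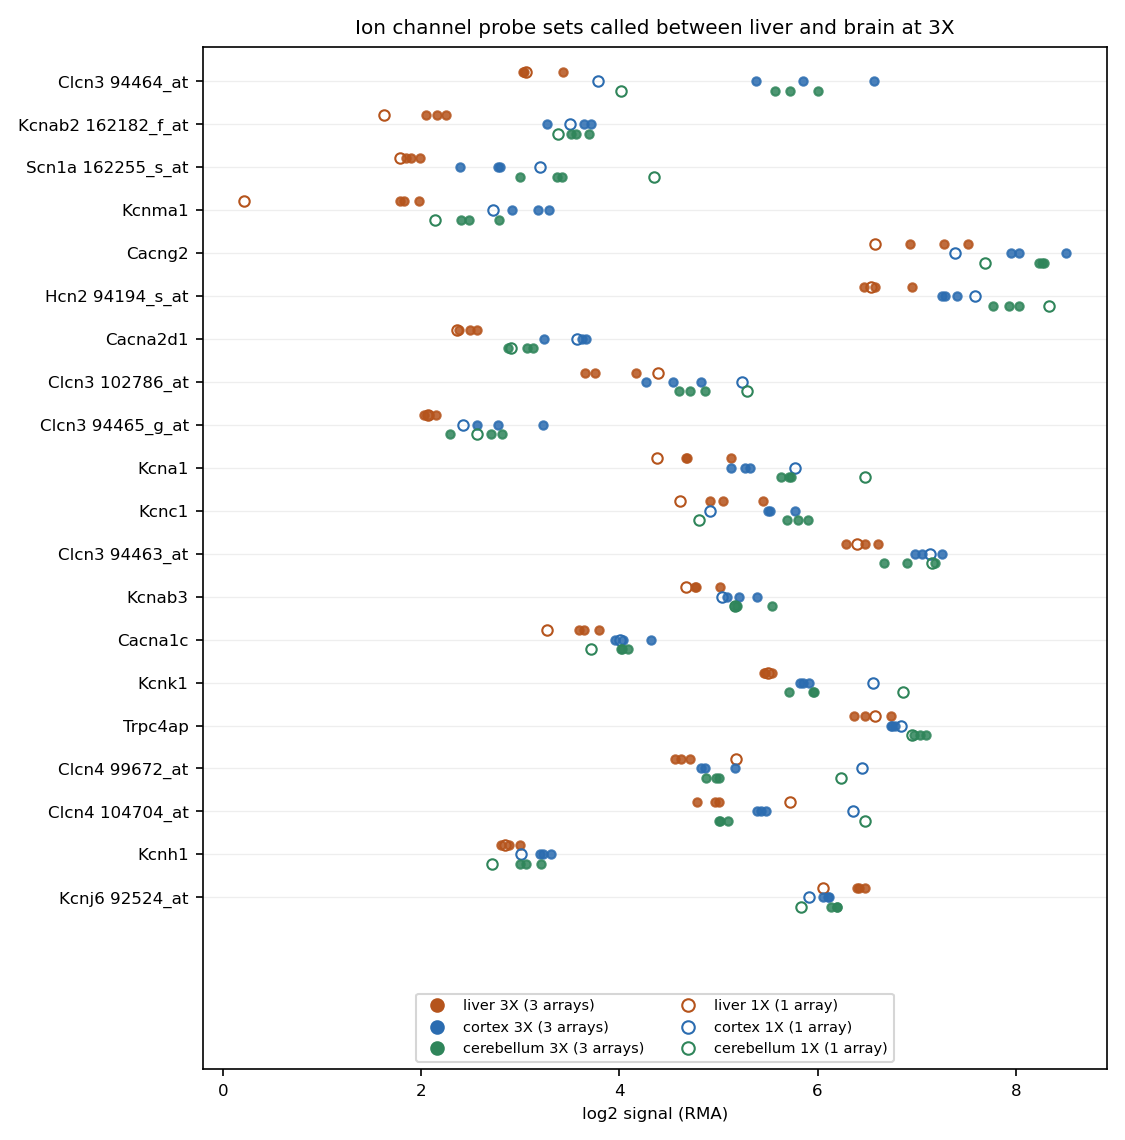
Log2 signal on every array for the 20 channel probe sets called between liver and brain at 3X, in order of their difference. Filled points are the 3X arrays and open circles the single 1X array of each tissue. Clcn3 94464_at stands apart, with liver at 3.03 to 3.43 and brain at 5.37 to 6.57 at 3X, while its 1X arrays span only 3.06 to 4.01.

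Among the chloride channels and exchangers, Clcn3 encodes ClC-3, an exchanger of endosomes and synaptic vesicles. Its probe set 94464_at read 3.43, 3.04 and 3.03 in 3X liver, against 6.57, 5.37 and 5.85 in 3X cortex and 5.73, 6.0 and 5.57 in 3X cerebellum. The liver arrays lay far below both brain regions, a difference of -2.68 ± 0.22 (SE, limma adjusted p = 9.29e-06). At 1X the same probe set read 3.06 in liver, 3.78 in cortex and 4.01 in cerebellum, a difference of -0.83. The other 3 probe sets of Clcn3 were also called lower in liver, 102786_at by -0.77, 94465_g_at by -0.65 and 94463_at by -0.55. At 1X these gave -0.87, -0.43 and -0.75, so the 4 probe sets lay closer together at 1X than at 3X. Clcn4, the gene of the related endosomal exchanger ClC-4, had differences of -0.32 with both of its probe sets (limma adjusted p = 0.0102 and 0.0273). Its probe set 104704_at read 5.00, 4.97 and 4.78 in 3X liver, against 5.43, 5.39 and 5.48 in cortex and 5.09, 5.02 and 5.01 in cerebellum. The highest liver array and the lowest cerebellum array lay close together without overlapping. The other 7 chloride channel probe sets, of Clcn1, Clcn2, Clcn5 and Clcn7, were not called and lay between -0.19 and 0.28.

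Of the potassium auxiliary subunits, 2 of 7 probe sets were called lower in liver. Kcnab2 encodes a cytoplasmic beta subunit that binds Kv1 channels. Its probe set 162182_f_at read 2.25, 2.16 and 2.05 in 3X liver, against 3.27, 3.71 and 3.64 in 3X cortex and 3.56, 3.69 and 3.51 in 3X cerebellum. Liver lay below all brain arrays by -1.41 ± 0.10 (SE, limma adjusted p = 4.13e-06), and 1X gave -1.81. The suffix of this probe set marks probes shared with related sequences. The other probe set of Kcnab2, 102892_at, was dim in no group, gave 0.18 at 3X and was not called, with -1.95 at 1X. Kcnab3, the gene of another beta subunit, read 5.02, 4.76 and 4.77 in 3X liver, against 5.09, 5.39 and 5.21 in cortex and 5.54, 5.19 and 5.17 in cerebellum. It was lower in liver by -0.41 ± 0.11 (SE, limma adjusted p = 0.0218), and the adjusted p was 0.0905 without liver replicate 2 and 0.0518 without liver replicate 3.

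Among the voltage-gated potassium alpha subunits 3 of 19 probe sets were called lower in liver and none higher. Kcna1 encodes Kv1.1, a channel of axons. It read 4.68, 5.13 and 4.67 in 3X liver, against 5.27, 5.13 and 5.32 in 3X cortex and 5.63, 5.71 and 5.74 in 3X cerebellum. Liver replicate 2 reached the lowest cortex array, so the groups overlapped, and the difference was -0.64 ± 0.11 (SE, limma adjusted p = 0.00158). At 1X Kcna1 read 4.39 in liver, 5.78 in cortex and 6.48 in cerebellum, a difference of -1.74. Kcnc1, the gene of Kv3.1, a channel of fast-spiking neurons, read 5.04, 5.45 and 4.92 in 3X liver, against 5.77, 5.52 and 5.50 in cortex and 5.90, 5.81 and 5.69 in cerebellum. It was lower in liver by -0.56 ± 0.12 (SE, limma adjusted p = 0.00661), with no overlap, and by -0.25 at 1X. Kcnh1, the gene of an ether-a-go-go channel, was lower by -0.27 (limma adjusted p = 0.0296), was dim in all 6 groups, and gave -0.01 at 1X. The other 16 probe sets, among them those of Kcna2, Kcna4, Kcnd2 and Kcnq1, lay between -0.24 and 0.16.

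The activated potassium channels had 1 call in 5 probe sets, Kcnma1, which encodes the BK channel opened by calcium and voltage. It read 1.98, 1.79 and 1.83 in 3X liver, against 3.29, 2.92 and 3.18 in 3X cortex and 2.49, 2.79 and 2.40 in 3X cerebellum. Liver lay below both regions by -0.98 ± 0.11 (SE, limma adjusted p = 8.78e-05). At 1X the liver array read 0.22, against 2.73 in cortex and 2.14 in cerebellum, and all these group means were dim, so a difference of -2.22 is no measured ratio of RNA. The tandem-pore family also had 1 call in 5, Kcnk1, the gene of the background channel TWIK-1. It read 5.54, 5.46 and 5.47 in 3X liver, against 5.83, 5.91 and 5.86 in 3X cortex and 5.96, 5.71 and 5.96 in 3X cerebellum. The groups did not overlap and differed by -0.38 ± 0.08 (SE, limma adjusted p = 0.00444), against -1.21 at 1X.

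The inward rectifiers were the only subfamily with no call below brain in this fit, in 15 probe sets of 11 genes. Kcnj6, the gene of the G-protein-gated channel GIRK2, was the only member called higher in liver. Its probe set 92524_at read 6.48, 6.39 and 6.42 in 3X liver, against 6.06, 6.11 and 6.12 in 3X cortex and 6.20, 6.14 and 6.19 in 3X cerebellum. The liver arrays lay above all brain arrays by 0.30 ± 0.06 (SE, limma adjusted p = 0.00617), and 1X gave 0.18. The other probe set of Kcnj6 gave 0.04 and was not called.

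Of the 8 sodium channel alpha probe sets 1 was called lower in liver. Scn1a encodes Nav1.1, a sodium channel of the central nervous system. Its probe set 162255_s_at read 1.90, 1.99 and 1.84 in 3X liver, against 2.78, 2.40 and 2.80 in 3X cortex and 3.00, 3.43 and 3.38 in 3X cerebellum. The 3 tissues did not overlap, and liver was below brain by -1.05 ± 0.12 (SE, limma adjusted p = 9.48e-05) and by -1.99 at 1X. The 3X means of this probe set were dim in all 3 tissues. The other Scn1a probe set, 94201_at, gave -0.13 at 3X and was not called, with -0.83 at 1X. Scn8a, Scn3a, Scn7a, Scn9a and Scn10a were not called.

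In the voltage-gated calcium channels, 1 of 8 alpha1 probe sets and 2 of 5 auxiliary probe sets were called lower in liver. Cacng2 encodes stargazin, which also escorts AMPA receptors to the synapse. It read 7.28, 7.52 and 6.93 in 3X liver, against 8.03, 8.51 and 7.95 in 3X cortex and 8.26, 8.23 and 8.28 in 3X cerebellum. Liver lay below both regions by -0.97 ± 0.14 (SE, limma adjusted p = 0.000693), and 1X gave -0.96. Cacna2d1, the gene of an alpha2delta subunit, read 2.50, 2.57 and 2.38 in 3X liver, against 3.66, 3.24 and 3.62 in cortex and 3.13, 3.07 and 2.88 in cerebellum. It was lower in liver by -0.78 ± 0.11 (SE, limma adjusted p = 0.000355), with no overlap and a dim liver mean. Cacna1c, which encodes the L-type channel Cav1.2, read 3.64, 3.80 and 3.59 in 3X liver, against 4.32, 4.04 and 3.96 in cortex and 4.09, 4.02 and 4.03 in cerebellum, a difference of -0.40 ± 0.09 (SE, limma adjusted p = 0.00976). Its liver arrays lay below all brain arrays. Cacna1a and Cacna1b, genes of the synaptic P/Q-type and N-type channels, gave 0.25 and 0.07 at 3X and were not called. At 1X both had the other sign, with -0.63 for Cacna1a and -0.38 for Cacna1b. The 3X means of Cacna1a were dim in all 3 tissues.

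Of the HCN genes, Hcn2 was called with 1 of its 2 probe sets. Probe set 94194_s_at read 6.95, 6.58 and 6.47 in 3X liver, against 7.25, 7.29 and 7.40 in 3X cortex and 8.03, 7.94 and 7.77 in 3X cerebellum. The 3 tissues did not overlap, with liver lowest and cerebellum highest, and liver minus brain was -0.95 ± 0.11 (SE, limma adjusted p = 0.000119) at 3X and -1.42 at 1X. The other probe set gave -0.10 and was not called. No TRP channel was called. Trpc4ap read 6.74, 6.37 and 6.47 in 3X liver, against 6.75, 6.78 and 6.74 in cortex and 7.04, 7.09 and 6.97 in cerebellum, a difference of -0.37 ± 0.09 (SE, limma adjusted p = 0.0113). The adjusted p was 0.0561 without liver replicate 2.

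Probe sets of the same gene did not always give the same call. Of the 19 genes with several probe sets, Clcn3 and Clcn4 were called with all of theirs, while Hcn2, Kcnab2, Kcnj6 and Scn1a were called with 1 of 2. Of the 19 probe sets called lower, 7 had a dim liver mean at 3X. Besides Kcnab2 162182_f_at, Scn1a 162255_s_at, Hcn2 94194_s_at, Cacna1c 98386_s_at and Clcn3 94465_g_at carry a suffix, of other letters. For Kcnab2, Scn1a, Hcn2 and Cacna1c no probe set without a suffix was called. Set against each region alone, liver had 16 members called lower (background 10.1%) and 1 higher (6.64%) than cortex, and 17 lower (10.2%) and 1 higher (6.38%) than cerebellum. In the same direction against both, 13 were called lower (7.45% of all probe sets). Trpc4ap, Kcnab3, Kcnh1, Clcn3 94465_g_at and both Clcn4 probe sets were called lower than brain but not against both regions. Trpc4ap gave -0.23 against cortex (limma adjusted p = 0.152), and Clcn4 104704_at gave -0.12 against cerebellum (limma adjusted p = 0.414). The liver minus cortex count, added after seeing the data, leaves the cerebellum arrays that carry kidney transcripts out of the difference, but they still enter the shared estimate of the spread. A fit of only the 6 liver and cortex 3X arrays, also added later, called 14 lower in liver (8.45% of all probe sets) and 1 higher (5.03%).

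The 1X arrays, with 1 per tissue, gave the same sign as 3X for all 20 called members, which is a description with no test. In 13 of the 20 the 1X difference was the larger in size. Neither count was made over all called probe sets, so they show nothing particular to the channels. Liver was below brain in 56 of the 97 members at 3X (47.1% of all probe sets) and in 77 at 1X (53.9% of all probe sets). The median difference was -0.23 at 1X, against -0.02 over all probe sets. At 1X, 9 members were at least 2-fold lower in liver (6.65% of all probe sets) and 0 were at least 2-fold higher (6.54%). Of these 9, 7 were called lower at 3X and 2 were not, namely Kcnab2 102892_at and Kcnj9 98332_at (2.12% of all probe sets were 2-fold lower at 1X and not called at 3X).

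**Figure D2:**
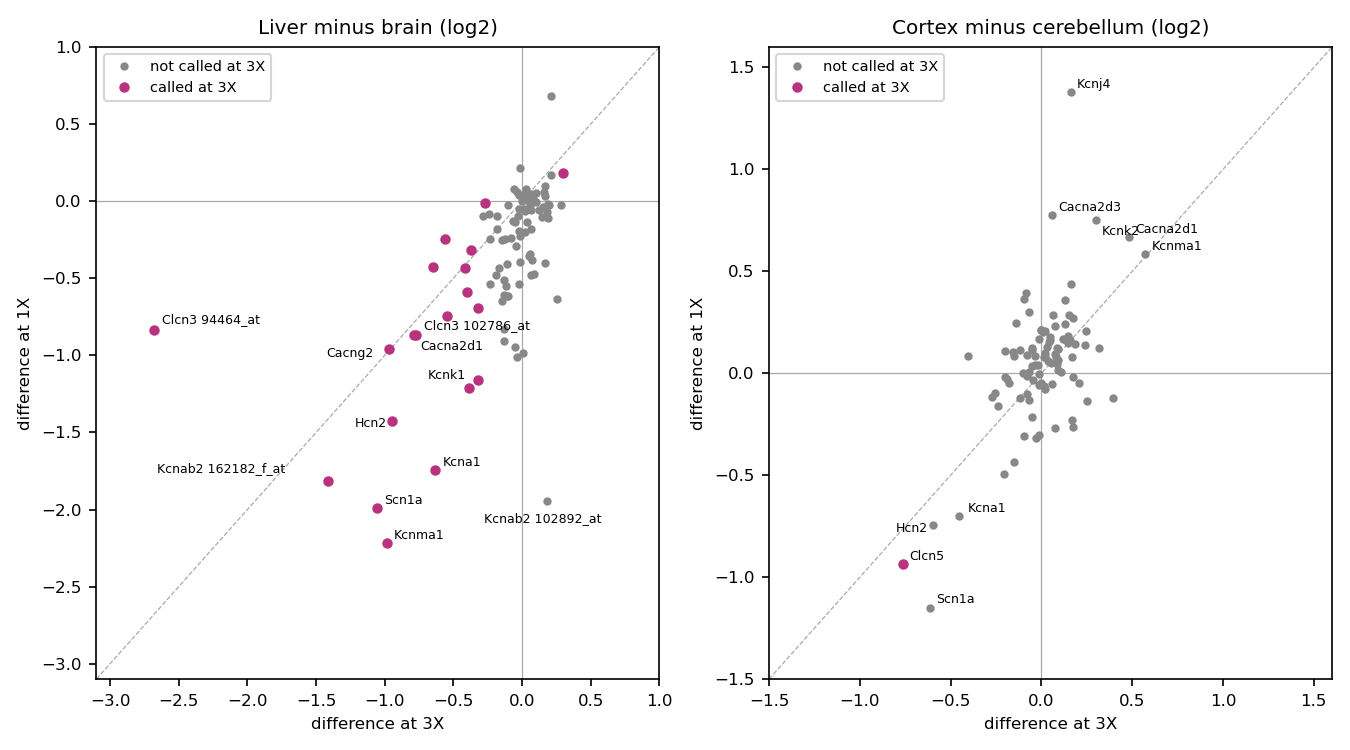
Difference at 1X (vertical axis, log2) against difference at 3X (horizontal axis, log2) for the 97 channel probe sets, with liver minus brain on the left and cortex minus cerebellum on the right. The dashed line marks equal differences. Kcnab2 102892_at lies at 0.18 for 3X and -1.95 for 1X, and Clcn3 94464_at at -2.68 and -0.83.

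Cortex was then set against cerebellum in the same fit. A single channel probe set, of Clcn5, was called lower in cortex (0.628% of all probe sets) and 0 were called higher (0.435%). At an unadjusted p under 0.05 in limma, 7 members were higher (4.22% of all probe sets) and 10 lower (4.38%). The median difference of the 97 was 0.02, against 0.01 over all probe sets. Clcn5 encodes ClC-5, an endosomal exchanger best known from the proximal tubule of the kidney. Its probe set 101913_at read 5.27, 5.43 and 5.12 in 3X cortex, against 5.93, 6.31 and 5.87 in 3X cerebellum. The cortex arrays all lay below the cerebellum arrays, by -0.76 ± 0.14 (SE, limma adjusted p = 0.0229), and 1X read 5.17 in cortex, against 6.10 in cerebellum. The 3X liver arrays, at 5.56, 5.29 and 5.55, also lay below the cerebellum arrays. The other probe set of Clcn5 was dim, gave -0.24 and was not called, although its cortex arrays lay below its cerebellum arrays too. The call on 101913_at rested on single arrays, with an adjusted p of 0.115 without cortex replicate 1, 0.114 without cortex replicate 3, 0.0538 without cerebellum replicate 1 and 0.0781 without cerebellum replicate 2.

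Kidney markers moved with Clcn5. The list was chosen with this earlier finding known. Of 11 measured kidney genes, limma called 7 lower in cortex than in cerebellum and 0 higher (0 higher also at an unadjusted p under 0.05), with a median of -0.88. They were Napsa (-3.43), Hsd3b2 (-2.54), Hao2 (-1.97), Kap (-1.04), Slc34a1 (-0.95), Umod (-0.88) and Miox (-0.86). Slc12a1, Slc22a6, Cdh16 and Aqp2 were not called. The summed log2 level of the list was 32.9 to 34.1 on the 3X cortex arrays and 45.2 to 46.2 on the 3X cerebellum arrays, with 30.8 on the cortex and 46.1 on the cerebellum array at 1X and 39.4 to 41.1 on the 3X liver arrays. The lowest value of any of them on any array was 0.15 (Hao2). Kcnj1, a member that encodes the kidney potassium channel ROMK, gave -0.20 and -0.05 with its 2 probe sets and was not called. With the first, 103972_at, the 3X cortex arrays lay below the 3X cerebellum arrays, and with the other they overlapped. The part of kidney RNA in the Clcn5 difference was not tested.

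**Figure D3:**
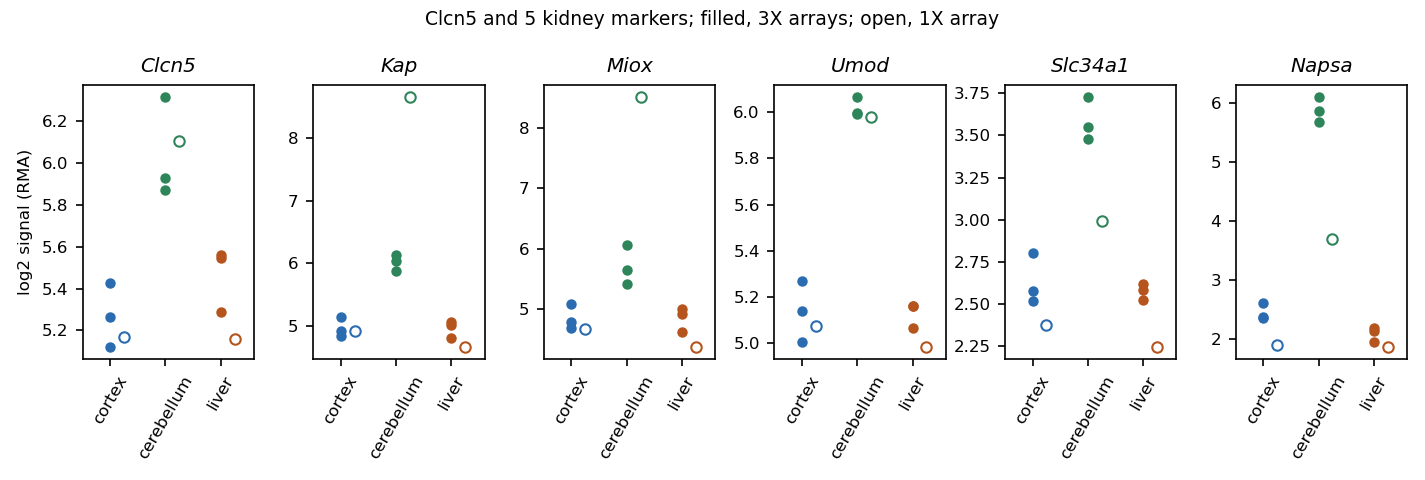
Log2 signal of Clcn5 (101913_at) and 5 kidney markers in cortex, cerebellum and liver, with filled points for the 3X arrays, open circles for the 1X array and a vertical scale of its own in each panel. For Clcn5, 3X cortex lies at 5.12 to 5.43 and 3X cerebellum at 5.87 to 6.31.

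Other members did not pass the threshold, and 6 of them passed it under some alternatives. Scn1a 162255_s_at gave -0.61 (limma adjusted p = 0.077) at 3X and -1.15 at 1X, where it was the only member at least 2-fold lower in cortex (0.829% of all probe sets). Hcn2 94194_s_at gave -0.60 (limma adjusted p = 0.0627) at 3X and -0.75 at 1X. Kcna1 gave -0.45 (limma adjusted p = 0.175). In the other direction Kcnma1 gave 0.57 (limma adjusted p = 0.0729), Cacna2d1 gave 0.48 (limma adjusted p = 0.134), and Clcn4 104704_at gave 0.39 (limma adjusted p = 0.0633), with -0.12 at 1X. At 1X Kcnj4, the gene of the inward rectifier Kir2.3, was the only member at least 2-fold higher in cortex, by 1.38 (0.628% of all probe sets), and at 3X it gave 0.16. Hcn2 94194_s_at, Kcna1 and Clcn4 104704_at were called in a fit of only the 6 cortex and cerebellum 3X arrays (limma adjusted p = 0.00794, 0.0246 and 0.0321). The additive model over 12 arrays called Hcn2 94194_s_at (0.0482) and Cacna2d1 (0.0408). Without liver replicate 3 the calls also held Hcn2 94194_s_at (0.0203), Kcnma1 (0.0477), Scn1a 162255_s_at (0.0477) and Clcn4 104704_at (0.0262). Without liver replicate 1 they held Hcn2 94194_s_at (0.0152), and without liver replicate 2 Kcna1 (0.0338). Without cortex replicate 2 they held Cacna2d1 (0.0307) and Kcnma1 (0.0496), and without cerebellum replicate 1 Scn1a 162255_s_at (0.0387). Over the 97 members, 67 had the same sign at 3X and at 1X in this comparison and 66 in liver minus brain. No share over all probe sets stands beside these counts, which are a description of the same RNA with no test.

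The last comparison asks how the 3X procedure read these genes relative to 1X. In a fit of all 12 arrays with tissue and procedure as additive terms, 39 of the 97 members were called higher at 3X and 10 lower. The background was 37.5% higher and 19.5% lower calls. With the 3 tissues as units, 19 members were called higher (26.4% of all probe sets) and 3 lower (11.3%). The median member difference was 0.17 and that of all probe sets 0.12, so values are read relative to that shift. At least 2-fold, 1 member was higher (2.21% of all probe sets) and 3 were lower (6.23%). Of the members called higher, 24 of 39 were not dim in all groups. The activated potassium channels had 4 of 5 called higher, the inward rectifiers 8 of 15, the voltage-gated potassium alpha subunits 8 of 19 and the calcium alpha1 subunits 5 of 8. The calcium auxiliary subunits had 2 of 5, the tandem-pore channels 2 of 5 and the HCN channels 1 of 3. The TRP group had 3 of 9, the sodium alpha subunits 2 of 8 and the potassium auxiliary subunits 1 of 7. The chloride family had 3 higher and 4 lower of 13. Lower calls were also made in the potassium auxiliary subunits (2 of 7) and the inward rectifiers (1 of 15). The calcium alpha1 subunits (1 of 8), sodium alpha subunits (1 of 8) and tandem-pore channels (1 of 5) had them too.

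**Figure D4:**
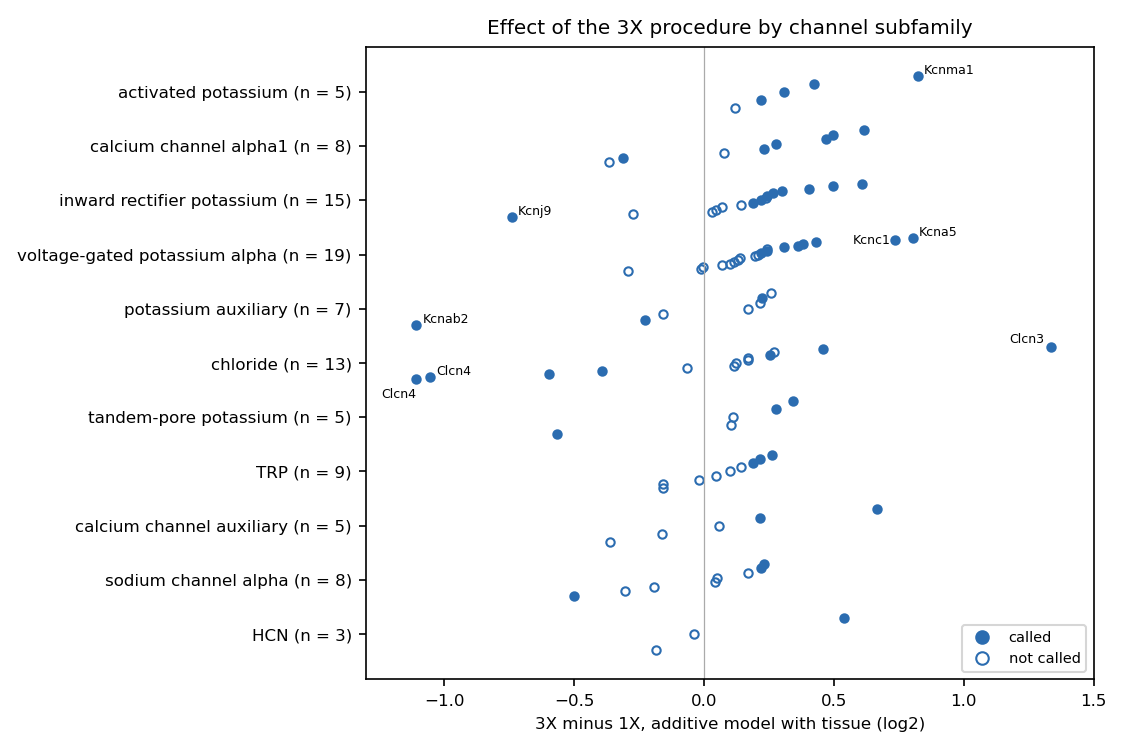
3X minus 1X difference (horizontal axis, log2, additive model) of the 97 channel probe sets by subfamily, with filled points for called and open circles for uncalled probe sets. Vertical spread within a row only separates points by rank. Clcn3 94464_at lies at 1.34, and Kcnab2 102892_at and both Clcn4 probe sets lie between -1.11 and -1.05.

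Among the members called higher at 3X, some were dim in every group, and a difference between dim signals is no measured ratio of RNA. Clcn3 94464_at was higher at 3X by 1.34 ± 0.34 (SE, limma adjusted p = 0.00658), with 3X minus 1X at 0.10 in liver, 2.15 in cortex and 1.75 in cerebellum. With the 3 tissues as units its adjusted p was 0.0999, and its liver means were dim. Another probe set of the gene, 102786_at, was lower at 3X by -0.60 ± 0.13 (SE, limma adjusted p = 0.00263), so the probe sets of Clcn3 moved in opposite directions. Kcnma1, dim in all 6 groups, was higher by 0.82 ± 0.20 (SE, limma adjusted p = 0.00575), with 1.65 in liver, 0.40 in cortex and 0.42 in cerebellum. Its adjusted p was 0.115 with the tissues as units. Kcna5, the gene of Kv1.5 and also dim in all 6 groups, read 3.40, 3.54 and 2.91 in 3X liver against 2.21 at 1X, 3.05, 3.25 and 3.30 in 3X cortex against 2.72, and 3.39, 3.37 and 3.04 in 3X cerebellum against 2.42. Every 3X array of Kcna5 lay above the 1X array of its tissue, by 0.80 ± 0.15 (SE, limma adjusted p = 0.00103). Kcnc1 (0.73) and Cacng2 (0.67), dim in no group, were also called. So were the T-type calcium channel gene Cacna1h (0.62) and Hcn3 (0.54), dim in all 6 groups, and the cardiac inward rectifier gene Kcnj5 (0.61), dim in all but 3X liver. For Kcnj5, 3X minus 1X was 0.67 for liver, 0.54 in cortex and 0.61 in cerebellum.

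Among the members called lower at 3X were Kcnab2 and Clcn4. Clcn4 99672_at read 4.56, 4.71 and 4.62 in 3X liver against 5.18 at 1X, 5.16, 4.87 and 4.82 in 3X cortex against 6.45, and 5.01, 4.87 and 4.98 in 3X cerebellum against 6.23. All 9 3X arrays lay below the 1X array of their tissue, by -1.11 ± 0.15 (SE, limma adjusted p = 0.000131). The other Clcn4 probe set, 104704_at, gave -1.05 ± 0.10 (SE, limma adjusted p = 1.7e-05), so both fell by more than 2-fold. Kcnab2 102892_at gave -1.11 ± 0.32 (SE, limma adjusted p = 0.0129). Also called were Kcnj9 98332_at (-0.74), Clcn3 102786_at (-0.60, above), Kcnk1 (-0.56), Scn1a 162255_s_at (-0.50), the lysosomal exchanger gene Clcn7 (104391_s_at, -0.39) and Cacna1b (-0.31). In liver alone 3X minus 1X was 0.12 for Scn1a 162255_s_at, -0.009 for Cacna1b, -0.01 for Kcnk1 and -0.09 for Kcnj9 98332_at. It was -0.53 for Clcn3 102786_at and -0.71 for Clcn7 104391_s_at. With the tissues as units the adjusted p was 0.176 for Kcnab2 102892_at, 0.0907 for Kcnj9, 0.123 for Kcnk1, 0.206 for Scn1a, 0.0989 for Clcn7 and 0.195 for Cacna1b, so none of these 6 was called. Cacna1b also lost its call under quantile normalization (adjusted p = 0.159) and without any 1 of 5 of the 3X arrays: liver replicate 3 (0.057), cortex replicate 1 (0.0611), 2 (0.0612) or 3 (0.06), or cerebellum replicate 3 (0.0614). Scn1a 162255_s_at lost its call without cortex replicate 2 (0.0578), cerebellum replicate 2 (0.0537) or cerebellum replicate 3 (0.0557).

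Whether 3X minus 1X depended on tissue was tested by a moderated F test of the interaction. Since 1X has 1 array per tissue, its spread was assumed to equal that of the 3X replicates. Of the 97 members 12 were called, against 10.4% of all probe sets. Kcnab2 102892_at had the largest F, 52.3 (limma adjusted p = 0.000229). It read 5.25, 5.24 and 4.84 in 3X liver against 4.80 at 1X, 5.09, 5.04 and 4.89 in 3X cortex against 6.83, and 4.75, 4.86 and 4.95 in 3X cerebellum against 6.67. The 1X brain arrays stood alone, since the 3X brain arrays were at the level of the liver arrays, and liver minus brain was 0.18 at 3X and -1.95 at 1X. The other probe set of the gene kept its tissue difference at 3X, as described above.

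Cacna2d3, the gene of another alpha2delta subunit, read 4.58, 4.72 and 4.66 in 3X liver against 4.35 at 1X, 4.62, 4.81 and 4.60 in 3X cortex against 5.72, and 4.69, 4.67 and 4.48 in 3X cerebellum against 4.95. The 1X cortex array lay furthest above the rest (F = 26.3, limma adjusted p = 0.00222). Scn8a, which encodes Nav1.6 of the axon initial segment, read 3.76, 3.84 and 3.88 in 3X liver against 3.50 at 1X with probe set 104504_at. In brain it read 3.95, 4.02 and 3.93 in 3X cortex against 4.46 at 1X and 4.0, 3.96 and 3.89 in 3X cerebellum against 4.36, so the 3X arrays lay above the 1X array in liver and below it in brain (F = 17.7, limma adjusted p = 0.00762). For Kcnk1 the 1X liver array lay within the range of the 3X liver arrays, while 1X read 6.56 in cortex and 6.86 in cerebellum, above all 3X arrays (F = 16.3, limma adjusted p = 0.01). Kcnma1, Kcnj9, Kcnj4, Kcna1, Clcn4, Cacna1a and both Scn1a probe sets were also called, and for Kcnj4 the 1X cortex array at 4.38 stood above 3.27, 3.36 and 3.31 at 3X.

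**Figure D5:**
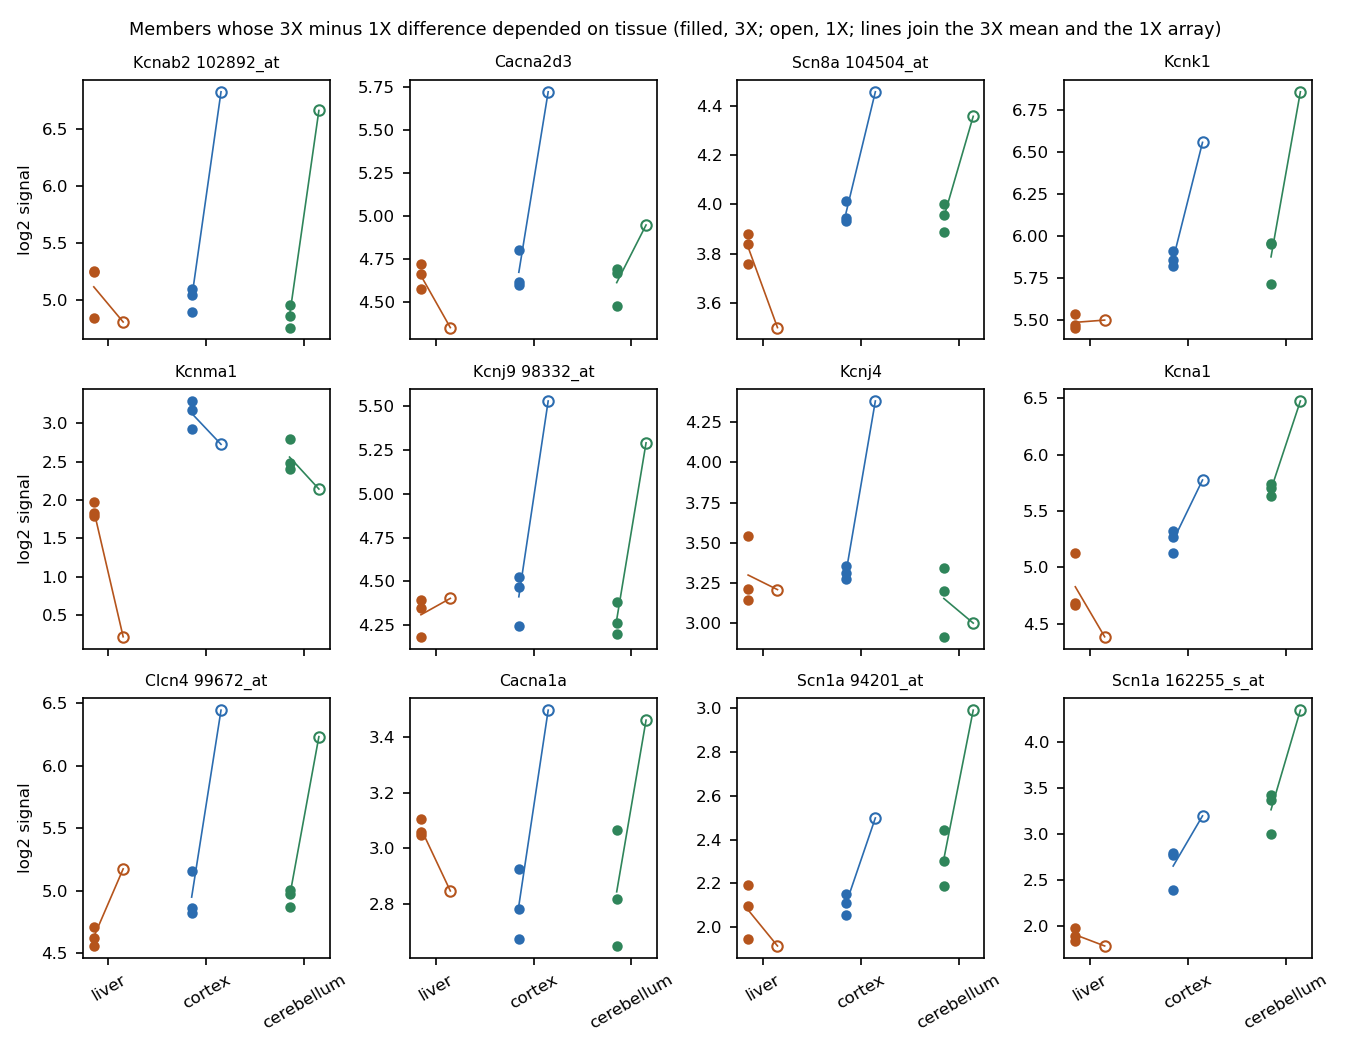
Log2 signal of the 12 channel probe sets whose 3X minus 1X difference depended on tissue, with a vertical scale of its own in each panel. Filled points are 3X arrays, open circles the 1X array, and lines join the 3X mean and the 1X array. For Kcnab2 102892_at the 1X brain arrays lie at 6.83 and 6.67 and all other arrays at 4.75 to 5.25.

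Genes of the same machinery outside the channel families were read from lists chosen with earlier results known. Of 30 listed partners of voltage-gated channels 17 were measured, and in liver limma called 11 lower than in brain and 0 higher (0 higher also at an unadjusted p under 0.05), with a median of -0.61. They include the spectrin gene Sptbn1 (-1.46) and the ankyrin-G gene Ank3 (-1.25). Ankyrin-G holds sodium channels in the membrane of the axon. The adhesion genes Nrcam (-1.18) and Cntn1 (-1.17), and Dpp6 (-0.77), the gene of an accessory subunit of Kv4 channels, were also among the 11. Between cortex and cerebellum limma called 0 of the 17, with 5 higher and 1 lower in cortex at an unadjusted p under 0.05. For the partners and for the next list, the background in liver was 12.3% lower and 8.17% higher calls among all probe sets. Of 44 other channels and pumps 26 were measured, and liver had 2 called higher and 8 called lower than brain. The sodium pump subunit genes Atp1b3 (-1.80), Atp1b1 (-1.64) and Atp1b2 (-0.80) and the chloride intracellular channel gene Clic4 (-1.32) were among those lower, and the ATP-gated channel gene P2rx4 was higher by 1.34. In cortex Atp1b1 was higher by 0.80 (limma adjusted p = 0.0105) and Clic4 lower by -1.38 (limma adjusted p = 0.0139) than in cerebellum.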

How the data were processed

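Per the labels, the 12 arrays come from liver, cortex and cerebellum of 1 mouse, at 3X (3 technical replicates per tissue) and 1X (1 array per tissue). The deposited log2 values per probe set were made by the authors with RMA, per the submitters' processing notes. Which version, log base and number of runs they used is not given in the sources used here, and base 2 was inferred from the values. The table held 12488 probe sets, and 66 manufacturer controls were left out. Of the 12422 tested, 10833 carried 1 gene symbol in the platform annotation, 396 several and 1193 none; genes were named only from the first kind, and all 97 members matched a RefSeq gene. No scaling or filter was added. Arrays have no read depth, so their number limits the precision.

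The tests were two-sided fits of limma 3.58.1 (R 4.3.3), using lmFit, contrasts.fit and eBayes, and p-values were adjusted by Benjamini-Hochberg over all probe sets tested. Liver minus brain and cortex minus cerebellum used the 9 3X arrays, 3X minus 1X an additive model with tissue over 12 arrays, and its tissue dependence a moderated F test over 6 group means. The fits were tested on simulated data, in which the 1X arrays were given the spread of the 3X replicates. Such data cannot check whether real 1X arrays vary like the 3X replicates.

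The members and lists were chosen with earlier results of these data known. Members given by value were those with the largest called differences, 1 probe set per symbol (up to 12 in each direction between tissues, 8 for 3X minus 1X, and 4 by F), and in a subfamily with none the gene with the highest mean, which added Trpc4ap. Clcn4 and Kcnh1 between liver and brain, members named as not called, and the further genes called for tissue dependence were named after their values were seen. Further marker lists gave, for liver minus brain, 4 of 7 astrocyte genes lower, 3 of 7 oligodendrocyte genes lower, 0 of 8 muscle genes (1 higher and 1 lower at an unadjusted p under 0.05 in limma), 1 of 8 smooth muscle and endothelium genes lower, and 0 of 3 choroid plexus genes (1 higher and 1 lower unadjusted). Alternatives tried were another scaling, a filter on dim probe sets, probe sets without a suffix, gene means, another variance model, the replicate number as a block, other sets of arrays, tissues as units and leaving out each 3X array.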

Additional observations from a re-analysis of the deposited data

Results flagged for a closer look

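In 12 channel probe sets the 3X minus 1X difference itself differed between tissues in the limma interaction test, which takes the spread at 1X, with 1 array per tissue, from the 3X replicates. Over all probe sets 10.4% were called. The adjusted p was 0.000229 for Kcnab2 102892_at, where liver changed by 0.31, cortex by -1.82 and cerebellum by -1.81 between 3X and 1X. It was 0.00222 for Cacna2d3 and 0.00762 for Scn8a 104504_at. For Kcnk1 it was 0.01, and for Kcnma1 it was 0.0106, with 1.65 in liver, 0.40 in cortex and 0.42 in cerebellum. For Kcnj9 98332_at it was 0.0107, with -0.09 in liver, -1.12 in cortex and -1.01 in cerebellum. It was 0.0159 for Kcnj4, 0.0163 for Kcna1 and 0.0247 for Clcn4 99672_at. It was 0.0347 for Cacna1a, with 0.22 in liver, -0.70 in cortex and -0.62 in cerebellum. The Scn1a probe sets 94201_at and 162255_s_at had 0.0385 and 0.0437.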

How the results depend on the processing

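The count of channel probe sets lower in liver than in brain was 19 and stayed within 1.5 times that under every alternative run, from 13 (mean level above the median, or called in the same direction against each region) to 20 (quantile normalization), and from 16 to 20 when a 3X array was left out. The count higher in liver was 1. It was 0 with the mean per gene, 2 with the replicate block (Kcnj6 and Clcn1 102622_r_at), 2 in the additive model over 12 arrays (Kcnj6 and Clcn7), and 1 to 5 when an array was left out. The 5 came without liver replicate 3 (Clcn1, Kcnab2 102892_at, Clcn7, Kcnj6 and Kcnj11), and it was 2 without cerebellum replicate 1. For cortex minus cerebellum, the count higher was 0, but 1 in the additive model, 1 in a fit of only the 6 brain 3X arrays and 0 to 2 without single arrays (2 without liver replicate 3 or cortex replicate 2). The count lower was 1, but 2 in the additive model, 3 in the fit of 6 arrays and 0 to 3 without single arrays (0 without cortex replicate 1, cortex replicate 3 or cerebellum replicate 2, and 3 without liver replicate 3, 2 without either other liver array). Without cerebellum replicate 1 the call was Scn1a in place of Clcn5. The members called beside Clcn5 were Hcn2, Kcna1, Cacna2d1 and Clcn4 in those 2 fits, and these, Kcnma1 and Scn1a without single arrays, with values in the report. For 3X minus 1X the count higher was 39, but 22 above the median level and 19 with tissues as units (26.4% of all probe sets), and 36 to 40 without single arrays; the count lower was 10, but 5 per gene, 3 with tissues as units (11.3%), and 8 to 12 without single arrays. The first of each has fewer features tested, and tissues as units has fewer degrees of freedom. The count of 12 for tissue dependence ranged from 8 to 16. Of 451 alternative values of the named members, 427 kept their call, 24 kept the direction without the call and 0 reversed; of the 24, 7 were of Cacna1b, 4 of Clcn5, 4 of Scn1a, 2 of Kcnab3, 1 of Trpc4ap and 1 each of Clcn3 94464_at, Clcn7, Kcnab2 102892_at, Kcnj9, Kcnk1 and Kcnma1, all 6 with tissues as units. The replicate numbers were not taken to pair the arrays, since only 5 of 9 same-number pairs had a correlation over 0.1 (r from -0.0991 to 0.342). However, 6 of 9 arrays correlated best with their own number, and the pairs of replicate 3 all had r from 0.294 to 0.342. What the replicate 3 arrays share was not tested. With the replicate block, 19 members were lower in liver, and 0 higher and 1 lower in cortex. Dim probe sets limit what a difference measures, since 30 of the 97 were dim in all groups.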
